A study of Mus musculus with 4 samples.

Results

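The genes described here are 56 members of the PI3K, mTOR, FoxO and autophagy network, chosen by name, and the question was where chromatin over them differed between Sin3B+/+ and Sin3B-/- Long Term hematopoietic stem cells (LT-HSCs). ATAC-Seq, in which a transposase tags open DNA, was performed on LT-HSCs sorted as Lin-Sca1+cKit+Flk2-CD48-CD150+ from C57BL/6 mice. There were 2 libraries from Sin3B+/+ cells, which the authors also label Sin3B F/F, and 2 from Sin3B-/- cells. In the Sin3B-/- cells Sin3B F/F had been deleted by Vav1-iCre, a driver active in blood cells. Each library pooled cells from 2 mice, for 8 mice in all. The authors deposited 5332 peaks that they had called different between the genotypes, and each peak carries the name of 1 gene. A member peak is a peak that carries a member's name. In all, 17 of the 56 members had 30 peaks, and no differential peak carried the name of the other 39. Peaks without a difference between genotypes were not analysed here, so for most of those 39 the level of accessibility is not given.

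Growth factor receptors of the insulin family recruit PI3K, which makes a membrane lipid that brings Pdpk1 and Akt together, and Akt then relieves Rheb and mTORC1 from inhibition by the Tsc proteins. Akt also keeps FoxO transcription factors out of the nucleus, while mTORC1 holds back Ulk1 and the TFE factors that start autophagy. In hematopoietic stem cells low PI3K and mTOR activity, nuclear FoxO proteins and autophagy are known to accompany quiescence, and loss of Foxo3, Stk11 or Tsc1 in mice is known to disturb the stem cell pool. Sin3B is a scaffold that holds histone deacetylases on chromatin and is known for keeping genes silent in quiescent cells.

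Of the 30 member peaks, 29 were more accessible and 1 was less accessible in Sin3B-/- LT-HSCs, which is near the shares over all 5332 peaks (95.7% higher and 4.29% lower). With each library centred on its own median over these 5332 peaks, 5 of the 30 were called higher, beside 7.01% of all 5332. The peak that fell lay in an intron of Foxo3, which also had a peak that rose. The largest gains lay in introns of Stk11 and Akt1. The 6 sequences below are the central 300 bases of the Foxo3 peaks, of the Stk11 and Akt1 peaks and of the Ulk1 peak, and the 250 bases upstream of the Txnip start, where a peak covers the start. They are shown because they are the only member loss, the other peak of the same gene, the largest gains, a further window with a FoxO motif and a promoter with that motif under a member peak. All are from GRCm38, on the plus strand and 5′ to 3′. The Txnip stretch is the RefSeq promoter of build GRCm38.p6, and its gene lies on the plus strand. Capitals mark the FoxO core GTAAACA or its reverse complement.
Foxo3 peak 1, chr10:42251250-42251549, fell: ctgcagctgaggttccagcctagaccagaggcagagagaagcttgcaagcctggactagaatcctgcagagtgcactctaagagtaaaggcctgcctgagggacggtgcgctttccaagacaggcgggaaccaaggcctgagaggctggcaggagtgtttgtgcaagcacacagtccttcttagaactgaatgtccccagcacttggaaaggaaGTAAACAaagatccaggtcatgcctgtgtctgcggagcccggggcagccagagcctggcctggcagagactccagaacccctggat
Foxo3 peak 2, chr10:42271428-42271727, rose: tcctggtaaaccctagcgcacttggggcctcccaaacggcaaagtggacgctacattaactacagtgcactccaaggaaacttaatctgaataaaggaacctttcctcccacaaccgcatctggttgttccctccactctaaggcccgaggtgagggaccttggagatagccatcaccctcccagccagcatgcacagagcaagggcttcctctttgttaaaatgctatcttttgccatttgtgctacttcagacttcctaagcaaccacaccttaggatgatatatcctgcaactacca
Stk11, chr10:80117188-80117487, rose: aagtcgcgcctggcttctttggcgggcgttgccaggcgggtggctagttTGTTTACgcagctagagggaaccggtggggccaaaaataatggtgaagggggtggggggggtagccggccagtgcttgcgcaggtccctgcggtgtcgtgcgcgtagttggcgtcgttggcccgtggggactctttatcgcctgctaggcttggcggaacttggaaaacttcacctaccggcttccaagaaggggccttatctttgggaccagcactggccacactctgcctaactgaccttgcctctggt
Akt1, chr12:112667874-112668173, rose: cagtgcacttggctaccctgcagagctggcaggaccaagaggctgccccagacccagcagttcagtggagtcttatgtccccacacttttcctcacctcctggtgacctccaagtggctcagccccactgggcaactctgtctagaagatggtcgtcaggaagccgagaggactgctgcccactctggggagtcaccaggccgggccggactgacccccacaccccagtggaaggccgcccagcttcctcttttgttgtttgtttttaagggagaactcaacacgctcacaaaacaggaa
Ulk1, chr5:110808100-110808399, rose: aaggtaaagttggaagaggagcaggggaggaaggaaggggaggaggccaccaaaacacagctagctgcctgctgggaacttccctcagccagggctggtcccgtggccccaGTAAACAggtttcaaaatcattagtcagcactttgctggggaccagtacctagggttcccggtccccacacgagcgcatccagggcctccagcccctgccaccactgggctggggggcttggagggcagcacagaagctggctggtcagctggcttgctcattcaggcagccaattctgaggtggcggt
Txnip promoter, chr3:96557707-96557956, under a peak that rose: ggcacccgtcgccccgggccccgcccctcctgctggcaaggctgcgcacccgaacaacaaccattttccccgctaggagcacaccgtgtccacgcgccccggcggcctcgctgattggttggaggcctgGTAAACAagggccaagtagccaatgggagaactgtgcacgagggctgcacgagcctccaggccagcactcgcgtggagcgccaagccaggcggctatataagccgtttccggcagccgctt

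The FoxO core was found in the windows of Foxo3 peak 1, Stk11 and Ulk1, which is 3 of 30 member windows, beside 3.90% of the central windows of all 5332 peaks. The motif was thus present in the peak that fell and in peaks that rose. Over RefSeq promoters of 300 bases, GTAAACA was present in 3.65% of 32851, and among the 26 promoters of members with a peak it was present in 3, of Akt1, Stk11 and Txnip. The E-box CACGTG, which the TFE factors can bind, was in 6.86% of all peak windows and in 0 of the 30 member windows, and the CLEAR core TCACGTGA, which contains an E-box, was in 0.506% and 0. The ETS core CCGGAAGT was in 3.11% of all windows and 0 of the members', and the E2F core TTTGGCGC was in 0.394% and in 1 member window, of Pdpk1 peak 2. All motifs were searched on both strands. These matches are descriptions of letters in a window, and binding was not measured.

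The level of a peak is the authors' normalized read level, and the change is the difference in mean log2(level + 1), Sin3B-/- minus Sin3B+/+. It was tested with limma over all 5332 peaks with Benjamini-Hochberg adjustment. Every change has the same standard error of 0.22, because limma shrank all peaks to a common variance. A p-value from this fit thus follows from the size of the change alone. Among all peaks deposited, 95.7% were called higher and 4.29% lower at an adjusted p under 0.05, so each peak of this preselected table was called, and the 29 of 30 member peaks called higher are near that background. A change of at least 1 was found in 11 of the 30 member peaks (36.7%) and in 22.4% of the table. The median change was 0.84 over the member peaks (interquartile range 0.65 to 1.09) and 0.76 over the table (0.63 to 0.97). In all 30 member peaks the libraries of the genotypes did not overlap, as in all 5332. No exact permutation test of 2 libraries against 2 can reach a p smaller than 0.33.

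Most member peaks lost their call when the libraries were centred. When each library was centred on its own median over the deposited peaks, every change dropped by 0.75. Of the table, 7.01% were then called higher and 4.29% lower. These peaks were selected for a difference and 95.7% of them were gains, so centring took away the typical gain itself. Whether the gains came from the scale of the deposited values was not tested. Among member peaks, 5 were then called higher and 1 lower. The 5 were the peaks of Stk11 and Akt1, Pik3r1 peak 2, Pik3ap1 peak 2 and Tsc2 peak 1, and the 1 was Foxo3 peak 1. The 5 gains were thus called on either scale. Centring could only enlarge the fall of Foxo3 peak 1, so its call on that scale is no added support. In bulk libraries, more open chromatin per cell and a larger share of cells with open chromatin cannot be told apart.

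**Figure D1:**
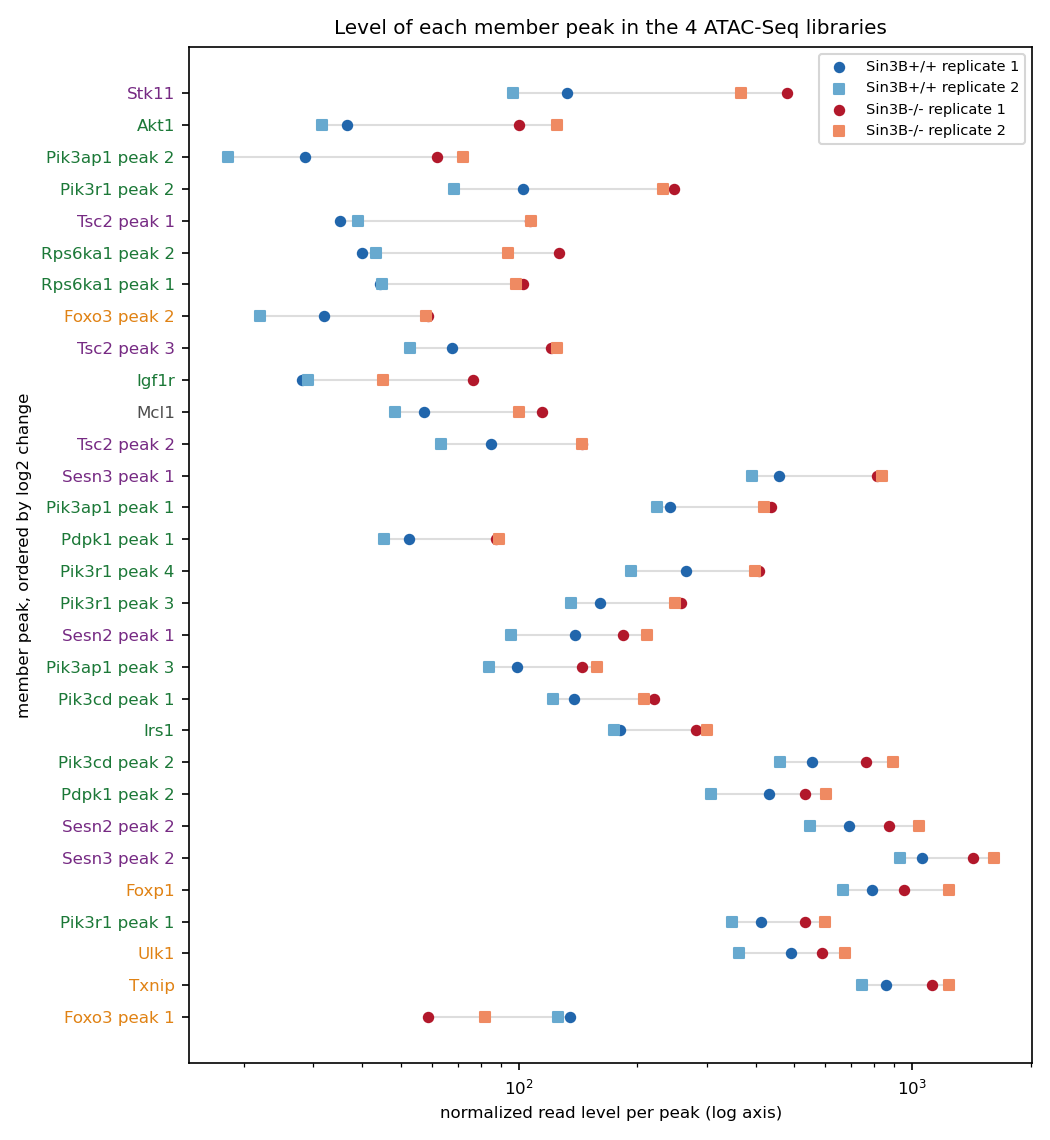
Normalized read level (x axis, log scale) of each of the 30 member peaks (y axis, ordered by change) in the 4 libraries, with circles for replicate 1 and squares for replicate 2, blue for Sin3B+/+ and red for Sin3B-/-. Name colours give the group (green growth signalling, purple its inhibitors, orange FoxO and autophagy, grey Bcl2 family), and only in Foxo3 peak 1, at the bottom, do the Sin3B-/- points lie to the left.

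Growth signalling genes, from receptors to kinases, had 16 peaks at 8 of 22 members, and all 16 rose. Their median change was 0.84, from 0.58 to 1.69, and 6 of them reached a change of 1, including the Rps6ka1 peaks. Among the receptors and adaptors, Igf1r and Irs1 each had 1 peak and Insr and Irs2 had none. Igf1r, the receptor for insulin-like growth factors, had a weak peak deep in its intron (chr7:68164034-68164486). The peak lay 211433 bp from the Igf1r start and 99973 bp from the start of Pgpep1l. Its level was 28.1 and 29.1 in the Sin3B+/+ libraries and 76.2 and 45 in the Sin3B-/- libraries. The Sin3B-/- libraries lay apart, and the change of 1.01 became 0.64 without Sin3B-/- replicate 1. Irs1, the adaptor that links those receptors to PI3K, had an intronic peak 8089 bp from its start (chr1:82282967-82283688) with levels of 180 and 174 against 281 and 300. The replicates of Irs1 lay close together, and its change was 0.71.

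PI3K subunits and adaptors held 9 peaks, all at Pik3cd, Pik3r1 and Pik3ap1, with a median change of 0.78. The other catalytic subunits Pik3ca, Pik3cb and Pik3cg and the regulatory subunits Pik3r2 and Pik3r5 had no differential peak. Pik3cd encodes the delta catalytic subunit that prevails in blood cells. Its peak 2 (chr4:149697590-149699004) covered an annotated start, with levels of 555 and 461 in Sin3B+/+ and 765 and 895 in Sin3B-/-, a change of 0.71 that was 0.60 and not called without Sin3B-/- replicate 2. Peak 1 (chr4:149662112-149662647), in an intron 905 bp from an alternative start, went from 138 and 122 to 221 and 208, a change of 0.72. The weak and the strong Pik3cd peaks thus changed by nearly the same amount.

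Pik3r1, which encodes the alpha regulatory subunit that stabilizes and restrains the catalytic subunits, had 4 peaks, a number that 1.03% of the genes in the table reached. Peak 4 lay in an intron 7733 bp from the start (chr13:101760236-101760733) and went from 266 and 192 to 407 and 398, a change of 0.83. Peak 3 covered an alternative start (chr13:101692180-101692761) and went from 160 and 136 to 259 and 250, a change of 0.78. These peaks within the gene changed to about the same degree. The other peaks lay past the 3′ end of the gene. Peak 2 (chr13:101663978-101664389) had levels of 102 and 68.6 in Sin3B+/+ and 248 and 233 in Sin3B-/-, a change of 1.51 with a limma Benjamini-Hochberg adjusted p of 4.8e-11, and a centred change of 0.76 with an adjusted p of 0.014. Peak 1 (chr13:101659023-101659512), the strongest of the 4 per kb, went from 413 and 348 to 534 and 599, a change of 0.58 that was 0.49 and not called without Sin3B-/- replicate 2. The downstream pair therefore held the largest and the smallest change of the gene.

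Pik3ap1, an adaptor that brings PI3K to receptors in B cells and myeloid cells, had 3 intronic peaks, and none near its start. Its peak 2 (chr19:41328726-41329112), 56177 bp from the start, had the lowest mean Sin3B+/+ level of all member peaks, with levels of 28.5 and 18.2 in Sin3B+/+ and 61.9 and 72 in Sin3B-/-. It changed by 1.51, and by 0.76 with centred libraries (limma, Benjamini-Hochberg adjusted p = 0.014). The flanking Pik3ap1 peaks changed less, by 0.88 at peak 1 (chr19:41310835-41311544; 242 and 224 against 437 and 420) and by 0.73 at peak 3 (chr19:41339069-41339717; 98.6 and 84.0 against 145 and 158).

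The group of Akt and mTOR kinases, in which Rps6ka1, a kinase downstream of ERK, was also listed, had 5 peaks. They lay at Pdpk1, Akt1 and Rps6ka1, with a median change of 1.15, which is the value of an Rps6ka1 peak. No peak carried the name of Akt2, of the mTOR complex genes Mtor, Rptor, Rictor and Mlst8, of the mTORC1 activator Rheb or of the mTORC1 substrate Rps6kb1, although a peak inside Rptor carried another name. Akt1, the central kinase of the pathway, had 1 intronic peak (chr12:112667720-112668326), 3541 bp from its nearest start, with levels of 36.5 and 31.5 in Sin3B+/+ (34.0 ± 3.52, SD, n = 2) and 100.0 and 125 in Sin3B-/- (112 ± 17.7, SD, n = 2). The lowest Sin3B-/- library was 2.74 times the highest Sin3B+/+ library. The change of 1.69 was the largest among growth signalling genes (limma, Benjamini-Hochberg adjusted p = 1.3e-13), lay between 1.53 and 1.85 when any library was left out, and was 0.94 with centred libraries (adjusted p = 0.0018).

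Pdpk1, the kinase that phosphorylates Akt, had a weak peak 1 (chr17:24140768-24141262) in an intron, 538 bp from an alternative start. Its levels of 52.5 and 45.2 in Sin3B+/+ and 87.5 and 89 in Sin3B-/- gave a change of 0.84. Pdpk1 peak 2 (chr17:24151821-24152691), 1332 bp upstream of the start, went from 432 and 308 to 532 and 605, a change of 0.64. The Sin3B+/+ libraries of peak 2 lay apart, and without Sin3B+/+ replicate 2 its change was 0.39 and was not called, as it was not without Sin3B-/- replicate 2 (0.54). Rps6ka1, a ribosomal S6 kinase that acts downstream of ERK, had a peak past its 3′ end (peak 1, chr4:133837019-133837334) that went from 44.3 and 44.9 to 102 and 98, a change of 1.15. Its intronic peak 2 (chr4:133879076-133879542) went from 39.9 and 43.2 to 126 and 94, a change of 1.37. Both Rps6ka1 peaks were weak and passed a change of 1.

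The inhibitors of growth signalling had 8 peaks at 4 of 13 members, all higher, with a median change of 0.97 (0.61 to 1.88). Stk11, also known as Lkb1, is the kinase that activates AMPK. Its peak (chr10:80117039-80117635) lay in an intron, 719 bp from its nearest annotated start and 1534 bp from the gene start. Its level was 132 and 96.3 in Sin3B+/+ (114 ± 25.5, SD, n = 2) and 479 and 366 in Sin3B-/- (423 ± 80.1, SD, n = 2), a ratio of the means of 3.70. This was the largest change of all member peaks, at 1.88 (limma, Benjamini-Hochberg adjusted p = 1.4e-16), between 1.65 and 2.11 when any library was left out, and 1.13 with centred libraries (adjusted p = 0.0041).

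Tsc2, the part of the Tsc complex that switches Rheb off, had 3 peaks in its gene body. Peak 1 lay over a coding exon (chr17:24608802-24609257) and went from 35.1 and 39.1 to 107 and 107, a change of 1.50. With centred libraries it changed by 0.75 (limma, Benjamini-Hochberg adjusted p = 0.017). The intronic peaks 2 (chr17:24610596-24611162) and 3 (chr17:24617716-24618276) changed by 0.97 and 1.03, from levels of 85.1 and 63.4 to 145 and 145 and of 67.5 and 52.8 to 121 and 125. All 3 Tsc2 peaks were thus weak and rose by close to 1 or more. Tsc1 had no peak, and a peak named for the neighbouring Nthl1, 2278 bp from the Tsc2 start, went from 26.7 and 24.7 to 86.9 and 71, a change of 1.58.

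Sesn2 and Sesn3 encode sestrins, stress-induced proteins that hold mTORC1 down when amino acids are short, and Sesn3 is a known FoxO target. Sesn3 peak 1 (chr9:14274977-14275416) over a UTR at the start, had levels of 458 and 391 in Sin3B+/+ and 812 and 840 in Sin3B-/-, a change of 0.96. Sesn3 peak 2 (chr9:14275633-14276432), over a further start, was the strongest member peak, with 1058 and 930 against 1430 and 1611 and a change of 0.61. The stronger of these neighbouring peaks had the smaller change. The Sesn2 peaks lay 4455 and 5173 bp upstream of its start. Peak 1 (chr4:132514801-132515111) went from 139 and 95.3 to 184 and 211, a change of 0.77 that was 0.50 without Sin3B+/+ replicate 2. Peak 2 (chr4:132515395-132515953) went from 692 and 549 to 871 and 1043, a change of 0.63. Without Sin3B-/- replicate 2, Sesn2 peak 2 (0.50) and Sesn3 peak 2 (0.53) were not called. No peak carried the name of Sesn1, the lipid phosphatases Inpp5d and Inpp4b, the Akt phosphatase Phlpp1, Deptor, or the AMPK subunits Prkaa1, Prkaa2 and Prkag2.

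**Figure D2:**
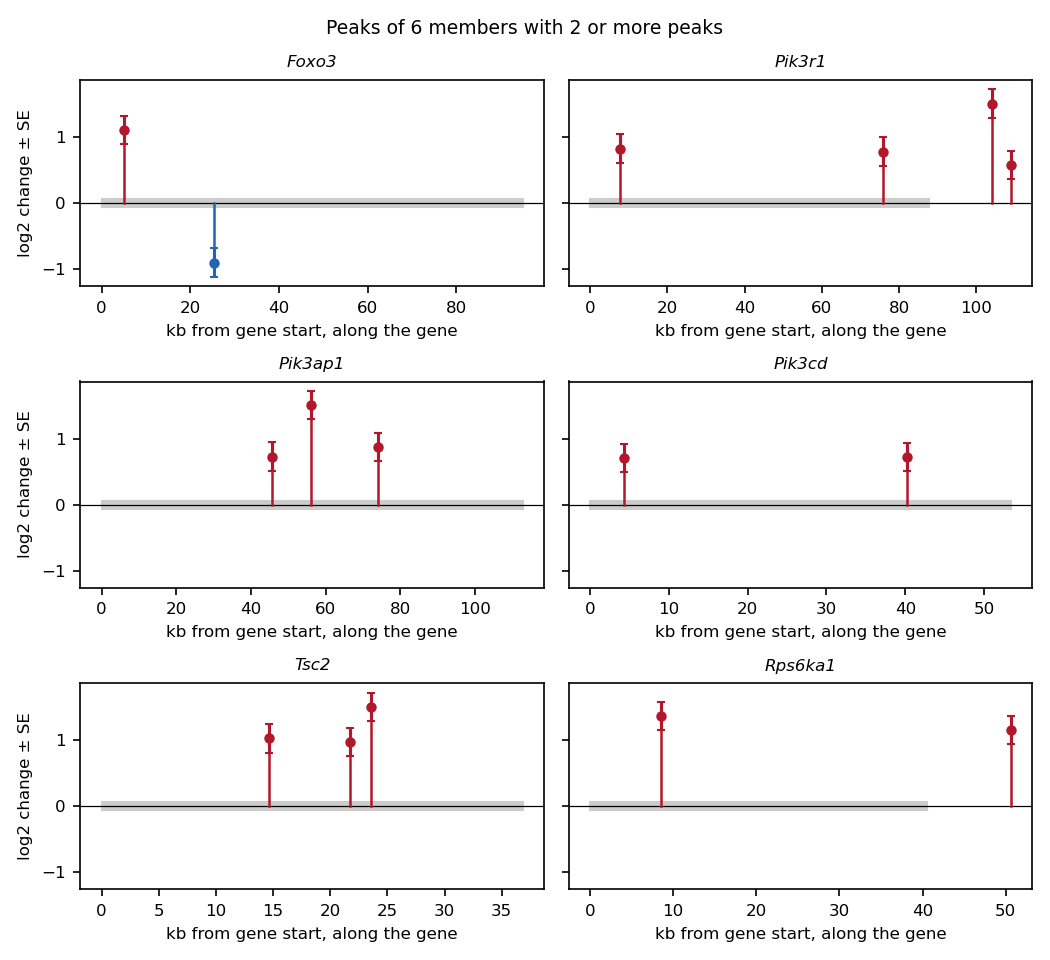
Change (y axis, log2 scale, Sin3B-/- minus Sin3B+/+, bars are the standard error from limma) of each peak against its distance from the gene start in kb along the gene (x axis) for 6 members with 2 or more peaks, with the gene body in grey. Foxo3 is the only gene with a peak below 0, and the Pik3r1 peaks with the largest and the smallest change lie past its 3′ end.

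FoxO and autophagy genes had 5 peaks at 4 of 17 members, of which 4 rose and 1 fell, with a median change of 0.57 (-0.90 to 1.11). Foxo3, the FoxO factor best known for keeping hematopoietic stem cells quiescent, had 2 intronic peaks that moved in opposite directions. Foxo3 peak 1 (chr10:42251115-42251684), 25297 bp from the start, had levels of 135 and 126 in Sin3B+/+ (130 ± 6.41, SD, n = 2) and 58.7 and 82 in Sin3B-/- (70.4 ± 16.5, SD, n = 2). Each Sin3B-/- library lay below each Sin3B+/+ library, and the change was -0.90 (limma, Benjamini-Hochberg adjusted p = 8.5e-05). It stayed between -1.14 and -0.66 when any library was left out. With centred libraries it was -1.65 (limma, Benjamini-Hochberg adjusted p = 2.3e-04), but centring lowers every change. Foxo3 peak 2 (chr10:42271444-42271711), 5119 bp from the start, had levels of 31.9 and 21.9 in Sin3B+/+ and 58.7 and 58 in Sin3B-/-, a change of 1.11 (limma, Benjamini-Hochberg adjusted p = 1.3e-06). It was not called with centred libraries (0.36, adjusted p = 0.17). Of 726 genes in the table with 2 or more peaks, 23 (3.17%) held peaks of both directions, and Foxo3 was the only member among them.

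Foxp1, a forkhead factor that counters FoxO, had a peak in an intron (chr6:99388533-99389687), within 1000 bp of the start of the lncRNA gene Gm20705. It went from 789 and 667 to 952 and 1239, a change of 0.58, which was 0.39 and not called without Sin3B-/- replicate 2. Txnip, a FoxO and glucose responsive inhibitor of thioredoxin, had a peak over its start (chr3:96557542-96558505), which also overlaps the antisense gene Gm15441. Its levels of 855 and 744 in Sin3B+/+ and 1125 and 1238 in Sin3B-/- gave a change of 0.56, the smallest gain of any member, which was 0.50 and not called without Sin3B-/- replicate 2. Ulk1, the kinase that starts autophagy, had an intronic peak 1804 bp from its start (chr5:110807822-110808676) that went from 492 and 364 to 588 and 673, a change of 0.57. It was not called without Sin3B+/+ replicate 2 (0.35) or without Sin3B-/- replicate 2 (0.47). The gains of Foxp1, Txnip and Ulk1 were called (limma, Benjamini-Hochberg adjusted p = 0.0077, 0.0094 and 0.0087), and all of them were below the table's median change.

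Ulk1 was the only 1 of 10 autophagy members whose name a differential peak carried. No peak carried the name of Ulk2, the conjugation genes Atg5, Atg7 and Atg12, Becn1, Gabarapl1 or the receptors Sqstm1, Bnip3 and Bnip3l. Foxo1, Foxo4, Tfeb and Tfe3 had none either. A peak named for Mgat4b lay 2196 bp upstream of the Sqstm1 start (chr11:50213023-50213350). It went from 101 and 64.8 to 158 and 144, a change of 0.89. Among the 4 Bcl2 family members, Mcl1, a survival factor that hematopoietic stem cells need, had 1 peak 4960 bp upstream (chr3:95653681-95653976) that went from 57.5 and 48.3 to 114 and 100, a change of 1.01. Bcl2, Bcl2l1 and Bcl2l11 had none.

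Growth signalling peaks had a median change 0.26 higher than FoxO and autophagy peaks. A spread of 0.245 between libraries (SD, 2 libraries per genotype) was computed from per-library medians of log2 level in the 2 groups. It belongs to the difference in median level, which is another measure than the difference in median change. The difference in median change was therefore given without a spread of its own and with no test. It lay between 0.15 and 0.36 when any library was left out. Centring left the difference at 0.26, and without Sin3B-/- replicate 1 it was 0.15. It was 0.40 with 1 value per member and 0.06 with the inhibitors counted beside FoxO and autophagy genes. The groups also differed in level, with medians of 168 for growth signalling, 213 for its inhibitors and 529 for FoxO and autophagy. By mean level over all 4 libraries, 18 member peaks lay below the table's median of 263, and 10 of them reached a change of 1 (55.6%, beside 39.5% of the table). Of the 12 above it 1 did (8.33%, beside 5.25%), and this was Stk11, which passed the median only through its Sin3B-/- levels. The mean includes the libraries that set the change, so level and change are not independent here. The part of level in the difference between the groups was not tested.

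**Figure D3:**
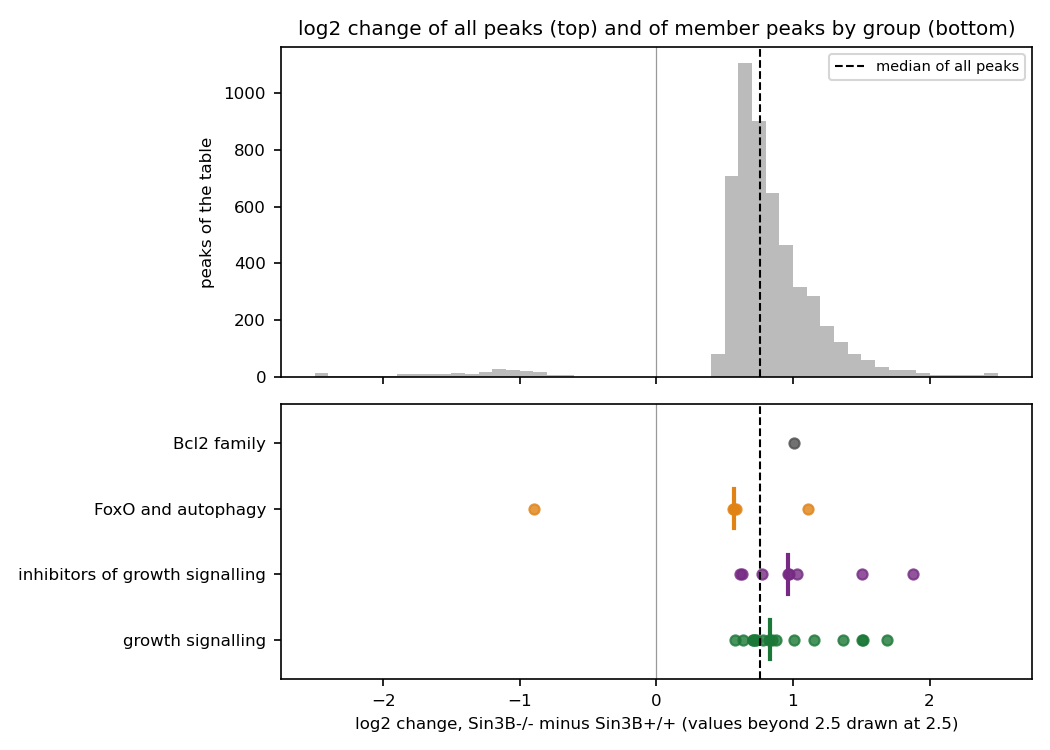
Number of table peaks by log2 change in bins of 0.1 (top, y axis) and the change of each member peak by group (bottom, 1 point per peak, thick bars are group medians), on a shared x axis of log2 change with values beyond 2.5 drawn at 2.5. The medians were 0.84 for growth signalling, 0.97 for its inhibitors and 0.57 for FoxO and autophagy, on either side of the dashed table median of 0.76.

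**Figure D4:**
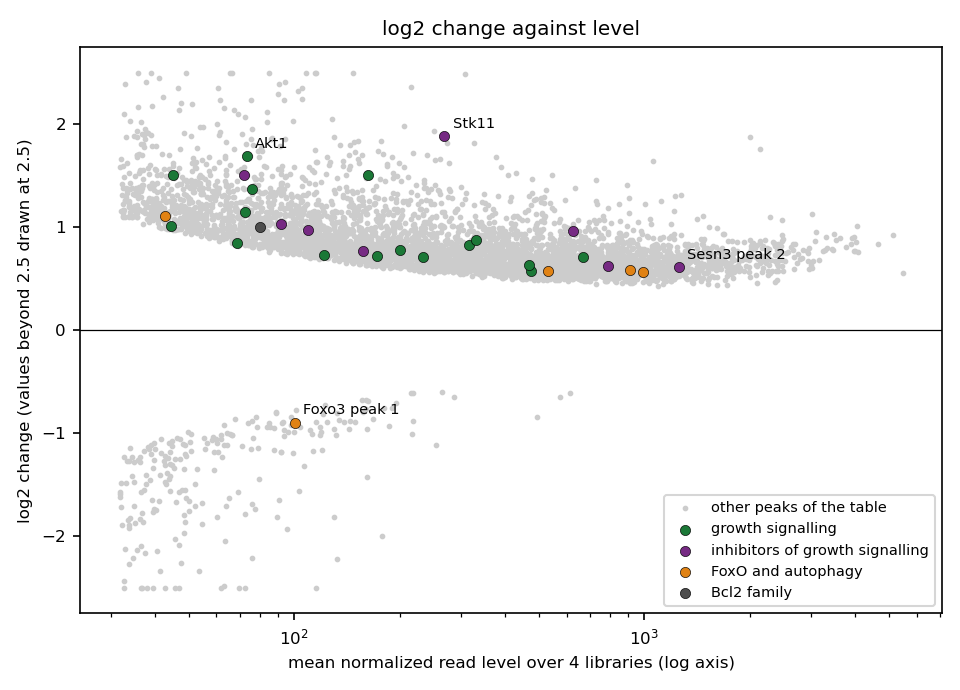
Log2 change (y axis, Sin3B-/- minus Sin3B+/+) against mean normalized read level over the 4 libraries (x axis, log scale) for all 5332 peaks in grey and the 30 member peaks in colour by group. Weak peaks had larger changes than strong peaks on both sides of 0, in a table that holds only peaks called different. Small changes at weak peaks may be missing through this selection, which was not tested. The mean level of a peak also includes its own gain, as at Stk11 (114 in Sin3B+/+ and 423 in Sin3B-/-).

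Member peaks lay at gene starts less often than table peaks did. A centre no more than 1000 bp before or 100 bp after a gene start was found in 3 of the 30 (10.0%), at Sesn3, Foxp1 and Txnip, and in 33.3% of the table. The Foxp1 peak was counted through the start of Gm20705. An annotated start lay under 5 member peaks (16.7%), beside 34.6% of the table. Within 2000 bp on either side, the number was 11, and the share of the table is not given here. Member peaks lay in introns in 63.3% of cases, beside 42.4% of the table, and their median GC content was 51.8% beside 53.3%. They were also weaker per length, with a median level of 335 per kb beside 396 per kb. Members with a peak often had several, since 9 of the 17 (52.9%) had at least 2 peaks, compared with 16.6% of the 4376 genes named in the table. A differential peak was present at 30.4% of members and at 15.7% of the 21924 protein-coding genes, and no test was made of these shares because the members were chosen with the data known.

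The 39 members with no peak of their own are those whose name no differential peak carried, so a distant nearest peak is partly built in. The same distances for other genes without a named peak are not given here, so those below are only descriptions. The nearest table peak lay over 50000 bp from the start in 27 of them, with a median distance of 127091 bp. It lay within 10000 bp of the start in 2 of them, Phlpp1 and Sqstm1. In 2 of the 39 a peak inside the gene carried another name. The start of Phlpp1 was under a peak named Gm20753 (chr1:106171194-106171827) that went from 981 and 788 to 1231 and 1381, a change of 0.57. A peak in Rptor, the mTORC1 subunit that selects substrates, was named Rptoros (chr11:119825831-119826210) and went from 26.0 and 19.9 to 55.6 and 67, a change of 1.39. Both of these genes thus had a gain that the table lists under another name.

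A further 113 genes of the same network were examined in the same way. Of these 35 (31.0%) had 43 peaks, all 43 rose, and 9 reached a change of 1 (20.9%, beside 22.4% of the table), with a median change of 0.75. Other PI3K and Akt genes had 10 peaks at 6 of 23 genes, other mTOR and AMPK genes 16 peaks at 13 of 34, other FoxO factors and targets 4 peaks at 4 of 11, other autophagy genes 10 peaks at 10 of 35 and other Bcl2 family genes 3 peaks at 2 of 10. The FoxO targets Gadd45a, Ccng2, Trib1 and Klf2 changed by 0.46, 0.61, 0.80 and 0.88. The largest change was at Uvrag, which promotes autophagosome formation with Becn1, with levels of 79.0 and 52.1 against 213 and 250 and a change of 1.83. Rragc, a Rag GTPase that brings mTORC1 to the lysosome, followed with 56.1 and 90.8 against 235 and 179, a change of 1.51. No peak of these 113 genes fell, beside 4.29% of the table, and a count of 0 among 43 peaks is near that background. Their peaks did not share the positions of the member peaks. A centre at a gene start, by the same window, was found in 39.5% of the 43 (10.0% of member peaks, 33.3% of the table). An annotated start lay under 46.5%, and 41.9% lay in introns. The fewer gene starts thus belong to the 56 chosen members and not to the network as a whole.

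The libraries agreed within genotype, with Pearson correlations of log2 level across peaks of 0.990 for each pair and 0.925 to 0.948 between genotypes, which describe a table selected for a difference. Total depth is unknown here. The lowest member level in a library was 45 steps or more, where a step is the smallest unit of which that library's values were whole multiples. Sin3b itself had no peak, so the genotype labels could not be checked on it. Of 7 LT-HSC marker genes 3, Procr, Slamf1 and Fgd5, had a differential peak, and of 13 markers of other cells none had. The purity of the sort was not tested.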

How the data were processed

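ATAC-Seq libraries of LT-HSCs were grouped by the genotype in their labels, with 2 libraries per genotype and replicate numbers from the labels. The authors used Trimmomatic for trimming, Bowtie2 for alignment, sambamba to remove duplicates and MACS2 to call peaks, then counted, normalized and tested them with DiffBind and DESeq2, and they deposited the peaks under a false discovery rate of 0.05. The values per library are a deposited signal, the normalized read level of a peak, and the normalization method is not given in the sources used here. The deposited log2 level and fold columns and the deposited p-value and FDR columns hold the authors' comparison and were not used. The submitters' notes name mm9, but 5330 of 5332 gene identifiers were found in GENCODE M21 (GRCm38) and 96.6% of these had the same start and end, so GRCm38 was used.

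Levels were tested with limma 3.58.1 in R 4.3.3 on log2(level + 1), with genotype as the sole term and Benjamini-Hochberg adjustment over all 5332 peaks. The pseudocount of 1 understates changes of low peaks. The pooled libraries came from different mice. In the main fit each p-value sets a change against a variance common to all peaks. It does not measure that peak's own spread between 2 libraries per genotype. Every adjusted p is over a table selected by the authors for a difference. limma was tested on simulated data before use.

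Members and gene lists were chosen with earlier results of these data known. Peaks were named in the text where the change reached 1, the peak fell, the member had 2 or more peaks, or the change was the largest or smallest of its role group. Foxp1 and Txnip met none of these and were described after their values were seen, to account for every member peak. Motifs were searched in the central 300 bases. The alternatives were pseudocount 5, a mean level of at least 50, centred libraries, a replicate block, leaving out each library, an adjusted p under 0.01, the nearest gene start, 1 value per member, and a wider promoter window. Other tools were Python 3.11.15, pandas 2.3.3, numpy 2.4.6, scipy 1.17.1, pysam 0.24.0 and matplotlib 3.10.9. Depth is unknown here, so counting error could not be given.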

Additional observations from a re-analysis of the deposited data

How the results depend on the processing

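With each library centred on its median over the deposited peaks, most of them gains, member peaks called higher fell from 29 to 5. The table's share fell from 95.7% to 7.01%. Member peaks with a change of at least 1 fell from 11 to 1. The median change was 0.083 over all member peaks, 0.083 over growth signalling peaks and -0.18 over FoxO and autophagy peaks. The centred change turned negative, without being called, at Irs1 (-0.043), Pik3cd peak 1 (-0.033), Pik3cd peak 2 (-0.044), Pik3r1 peak 1 (-0.18), Pik3ap1 peak 3 (-0.025), Pdpk1 peak 2 (-0.12), Sesn2 peak 2 (-0.12), Sesn3 peak 2 (-0.14), Foxp1 (-0.17), Txnip (-0.19) and Ulk1 (-0.18). Those values follow from the shift of 0.75 that centring takes from every peak. Within 2000 bp of a start lay 11 member peaks instead of 3. Leaving out 1 library gave 21 to 29 member peaks called higher and 1 called lower, a median change of 0.71 to 0.97, 8 to 14 peaks with a change of at least 1, and a difference between growth signalling and FoxO and autophagy peaks of 0.15 to 0.36. Without Sin3B-/- replicate 2, 8 calls were lost (Pik3cd peak 2, Pik3r1 peak 1, Pdpk1 peak 2, Sesn2 peak 2, Sesn3 peak 2, Foxp1, Txnip and Ulk1), and without Sin3B+/+ replicate 2, those of Pdpk1 peak 2 and Ulk1. With 1 library left in a genotype, it is assumed to vary like the other genotype's. The cause of the lost calls was not tested, and the share of the whole table that lost its call is not given here. With pseudocount 5, 29 member peaks were called higher and 8 reached a change of 1, and at an adjusted p under 0.01 29 were called higher (limma, Benjamini-Hochberg). With the replicate block 29 member peaks were called higher and 1 lower, and the block changed no call. Same-numbered libraries came from different mice, and their deviations had a correlation of -0.10, so a crossed pairing was added after seeing the data, with 29 and 1 calls. The planned count test on reads recovered from the steps was not run, because the check on the recovered reads did not hold. Depth, which is unknown here, and 2 libraries per genotype limit what can be said of small changes.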
